A study of Homo sapiens with 16 samples.

Results

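The RNA of HCT116 cells, an established human colon cancer line, was compared between a line whose Rpn10 (gene PSMD4) was truncated and the control (WT) line, in both cases after siRNA against OTUD5. The comparison takes 8 of the 16 libraries of the series, 4 of the truncation line and 4 of the WT line, chosen by library name and treatment label, and all genes of the raw count table. Of 60668 genes in the table, 43699 had at least 1 count in the 16 libraries, and 17104 passed the filter on low counts and were tested. Every cell in these 8 libraries received a mix of 4 siRNAs to OTUD5 at 50 nM for 48 h by reverse transfection. The truncated Rpn10 lacks the ubiquitin interacting motif, UIM. The other 8 libraries, 4 of each line, received scrambled siRNA under the same conditions and serve as the comparison without knockdown. The titles of the 4 truncation libraries with knockdown name the scramble siRNA, whereas their library names and treatment labels name siOTUD5, and the latter were followed. Biological replicates are numbered in the labels without a word on separate cultures. What p-values measure is then the scatter of these libraries, which may be technical. The labels do not say whether the edited line is 1 clone: the truncation and other differences between the lines cannot be told apart.

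Rpn10 is a subunit of the 19S regulatory particle of the proteasome, the protease that degrades proteins tagged with ubiquitin, and it binds ubiquitin chains through its UIM. When proteasome function falls short, cells are known to raise transcription of proteasome genes through the factor NRF1 (NFE2L1), which leaves the endoplasmic reticulum with the help of the ATPase VCP and is cut by the protease DDI2. OTUD5 is a deubiquitinase, an enzyme that takes ubiquitin off other proteins.

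The knockdown target was not called different between the lines. OTUD5 (ENSG00000068308, chrX:48922028-48958386, hg38) had 19.9, 19.4, 22.5 and 22.1 CPM (counts scaled to a common library size by TMM) in the 4 truncation knockdown libraries. In the 4 WT knockdown libraries it had 19.2, 17.4, 21.8 and 22.1 CPM, and the groups overlapped. The log2 fold change, truncation over WT, was 0.06 ± 0.07 (SE; edgeR adjusted p = 0.528). Both lines with scrambled siRNA stood above this range, at 93.8 ± 2.48 CPM in the truncation line and 88.3 ± 3.28 CPM in the WT line (mean ± SD, n = 4).

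PSMD4 itself (ENSG00000159352, chr1:151254703-151267479) was higher in the truncation line. It had 340.2, 338, 309 and 313 CPM there and 255, 276, 236 and 288 CPM in WT, with no overlap, a log2 fold change of 0.30 ± 0.06 (edgeR adjusted p = 0.000164). With scrambled siRNA the order was the opposite, 199.97 ± 4.86 CPM in the truncation line against 236 ± 13.4 CPM in WT. Counts per gene do not show which exons were read, so they do not check the truncation.

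Total counts of the 8 libraries ran from 28777244 to 29396205. The library labelled WT knockdown 3 had 32264 genes with a count, against 26225 to 27737 in the other 7, and WT knockdown 2 differed most from the others of its group in its counts over genes (chi-square per degree of freedom 17.7 to 22.9). Genes of hepatocytes, which these cells are not, summed to 27.84 to 89.31 CPM in the truncation libraries and to 34.6 to 100.9 CPM in WT, highest in truncation 1 and WT 3, with ALB at 159 to 901 and 203 to 1094 counts. Of 14 tested genes of that list, FOXA1 was higher and FOXA2 lower in the truncation line, and the other 12 were not called. The lower count of the list was 3 without truncation knockdown 1, and FOXA2 was below the filter in a fit to the 8 knockdown libraries alone. Haematopoietic markers summed to 1.599 to 6.079 CPM in the 8 libraries, highest in WT 3, and none of their 4 tested genes was called. Endothelial and fibroblast markers summed to 36.17 to 52.78 CPM, also highest in WT 3, and COL1A1 was at 31.7 to 44.2 CPM. Of 8 tested genes of that list 1 was higher and 1 lower, the latter count 0 to 2 with each library left out. Their part in the results below was not tested. Of the epithelial and colon markers, EPCAM (107 to 187 CPM), KRT8 (2200 to 3470 CPM) and CDX2 (18.5 to 23.5 CPM) were present in all 8 libraries. VIL1, LGR5, CDH17 and KRT20 stayed at or below 1.09 CPM.

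The lines differed in a large part of the transcriptome. A gene was called when its adjusted p in edgeR's quasi-likelihood test over all 17104 genes was below 0.05. By that rule 7783 genes, 45.5% of those tested, were called. Of these, 3747 (21.9%) were higher and 4036 (23.6%) lower in the truncation line, and 3352 and 4096 were called without WT libraries 2 and 3. Most differences were small: the median absolute log2 fold change of called genes was 0.41. Called genes that differed at least 2-fold numbered 471 higher (2.75%) and 428 lower (2.5%), and those at least 4-fold 83 and 82. In 3089 genes (18.1%) every truncation library was above every WT library, and in 3170 (18.5%) every one was below. The median log2 fold change over all tested genes was -0.003. Since a call is this common, each gene group below is read against these shares.

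The largest differences were in genes of no single function. NLRP4 (ENSG00000160505, chr19:55836578-55881854), an NLR family gene known from germ cells, had 68.0, 72.1, 70.9 and 64.0 CPM in the truncation line. In WT it had 2.62, 2.16, 2.04 and 2.46 CPM. The log2 fold change of 4.89 ± 0.10 (edgeR adjusted p = 3.06e-21) is a fitted 29.6-fold difference, and the lowest truncation library stood far above the highest WT library. SPARC (ENSG00000113140, chr5:151661096-151687165), a secreted protein that binds collagen, had 63.1, 72.9, 77.5 and 69.3 CPM against 2.62, 2.93, 3.70 and 2.12 CPM, a log2 fold change of 4.63 ± 0.11. SPP1, which encodes the secreted phosphoprotein osteopontin, had 32.3, 39.5, 36.8 and 36.6 CPM against 2.28, 2.13, 2.95 and 2.08 CPM, 3.94 ± 0.11 on the log2 scale. All 3 genes were below 4 CPM in every WT library. LRP1B, a large lipoprotein receptor relative, was higher by 3.61 ± 0.18, the growth factor EGF by 3.39 ± 0.16 and the guidance ligand SEMA3A by 3.00 ± 0.10. HSPB8, a small heat shock protein that works with BAG3, had 39.9, 41.2, 40.8 and 37.0 CPM against 6.67, 5.62, 6.21 and 5.96 CPM, a difference of 2.698 ± 0.07. SUSD2 (2.68 ± 0.08), PALM3 (2.55 ± 0.07) and the mucin-type glycosyltransferase GCNT3 (2.48 ± 0.20) completed the 10 largest rises. These 10 were taken among called genes whose groups did not overlap and whose log2 CPM averaged 1 or more over the 8 libraries.

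Among the falls, B3GALT5 (ENSG00000183778, chr21:39556442-39673137), a galactosyltransferase of glycan chains, had 0.201, 0.549, 0.759 and 0.266 CPM in the truncation line and 15.1, 22.8, 15.1 and 12.3 CPM in WT. Its log2 fold change was -5.19 ± 0.27 (edgeR adjusted p = 5.88e-14), a fitted 36.5-fold lower level. ZBED2, a zinc finger factor, was at 0.201, 0.446, 0.396 and 0.599 CPM against 8.03, 11.4, 7.95 and 10.3 CPM (-4.50 ± 0.19 on the log2 scale). The tyrosine kinase SYK had 0.837, 0.892, 0.925 and 0.566 CPM against 10.5, 10.9, 10.6 and 10.7 CPM, -3.72 ± 0.13 on the log2 scale. In each of these 3 genes all 4 truncation libraries were below 1 CPM. MAL2, an apical transport protein of epithelia, fell from 103, 91.6, 99.2 and 95.7 CPM in WT to 11.1, 8.62, 9.41 and 8.59 CPM, -3.37 ± 0.08 on the log2 scale. The other falls of the 10 largest were TMEM200A (-4.23 ± 0.17), the adhesion receptor ADGRF1 (-3.39 ± 0.08), the heparan sulfotransferase HS3ST1 (-3.12 ± 0.08), the Wnt modulator DACT1 (-3.07 ± 0.16), the semaphorin and VEGF co-receptor NRP1 (-2.99 ± 0.13) and PROM1, the stem cell surface protein CD133 (-2.64 ± 0.09). The plot of these 20 genes by library shows the gap between the groups.

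**Figure D1:**
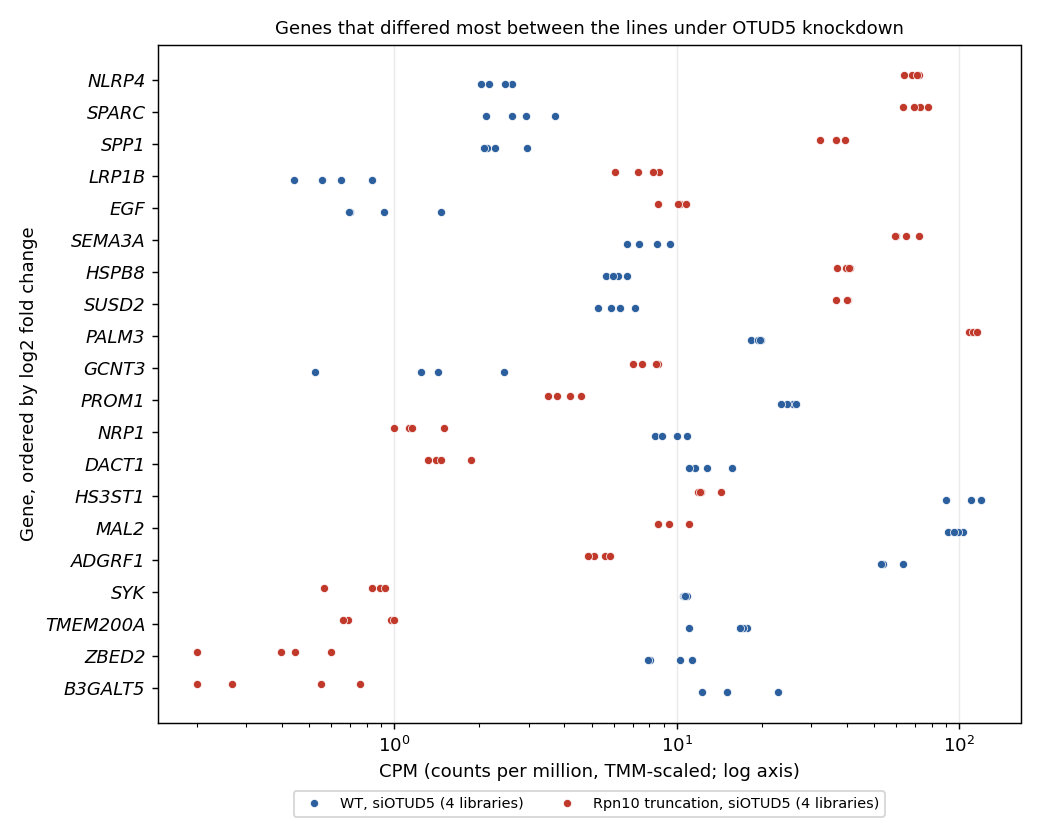
CPM on a log axis of the 10 genes with the largest rise and the 10 with the largest fall in the truncation line, each point 1 library, 4 per group, all after siOTUD5. No gene's groups overlap, and NLRP4 and B3GALT5 are at the ends with log2 fold changes of 4.89 and -5.19.

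By amount of RNA, GDF15, a stress-induced cytokine, was among the 8 largest rises, with 1065, 1281, 993 and 1203 CPM in the truncation line against 427, 388, 393 and 457 CPM (1.45 ± 0.07). The lysosomal protein precursor PSAP (0.98 ± 0.05), the secreted chaperone CLU (0.95 ± 0.08), the ferritin light chain FTL (0.31 ± 0.06), ANXA2 (0.29 ± 0.06) and the proteasome subunit PSMD2 were also among the 8 largest rises in CPM. KRT8 was another (0.24 ± 0.08), but its groups overlapped and its call was lost when some single libraries were left out (0.152 without WT knockdown 3). The largest falls in CPM were of ACTG1 (-0.37 ± 0.05), the elongation factor EEF2 (-0.35 ± 0.05), SCD, HSP90AB1 (-0.25 ± 0.05), FASN, the poly(A) binding protein PABPC1 (-0.34 ± 0.05), ENO1 (-0.25 ± 0.06) and RPLP0 (-0.37 ± 0.06).

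All listed subunits of the 26S proteasome were higher in the truncation line. The particle consists of the 20S core, which holds the proteolytic sites, and the 19S cap, whose base carries the ATPases and whose lid removes ubiquitin. All 14 core genes were called higher (median log2 fold change 0.86), as were all 10 genes of the base (median 0.79) and all 9 of the lid (median 0.72), against 21.9% of all tested genes, and the same numbers were called without WT libraries 2 and 3. Together these genes took 1.147% to 1.236% of counts in the truncation libraries and 0.6304% to 0.6703% in WT.

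Of the core, PSMA2, an alpha ring subunit, differed most (1.40 ± 0.14), followed by the catalytic subunit PSMB6. PSMB6 had 463, 473, 409 and 409 CPM in the truncation line and 181, 195, 159.9 and 194 CPM in WT, a log2 fold change of 1.27 ± 0.07. PSMA6 (1.04 ± 0.13) and the beta ring subunit PSMB4 (1.00 ± 0.06) came next, and the smallest difference of the core was 0.57 ± 0.06 (PSMA3). Of the base, the ATPase PSMC4 had 609, 608, 564 and 563 CPM against 212, 237, 212 and 238 CPM, 1.38 ± 0.06 on the log2 scale. The ATPases PSMC2 (1.13 ± 0.06) and PSMC1 (0.90 ± 0.06) and the scaffold PSMD2 (1.07 ± 0.05) were next. PSMD4, the truncated gene, had the smallest difference of the base. Of the lid, PSMD13 (1.15 ± 0.05), SEM1 (0.89 ± 0.07), PSMD11 (0.87 ± 0.05) and PSMD3 (0.83 ± 0.05) differed most, and PSMD7 least (0.50 ± 0.05). The RNA differences of all these subunits spanned from 0.30 to 1.40 on the log2 scale, and amounts of protein were not measured.

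**Figure D2:**
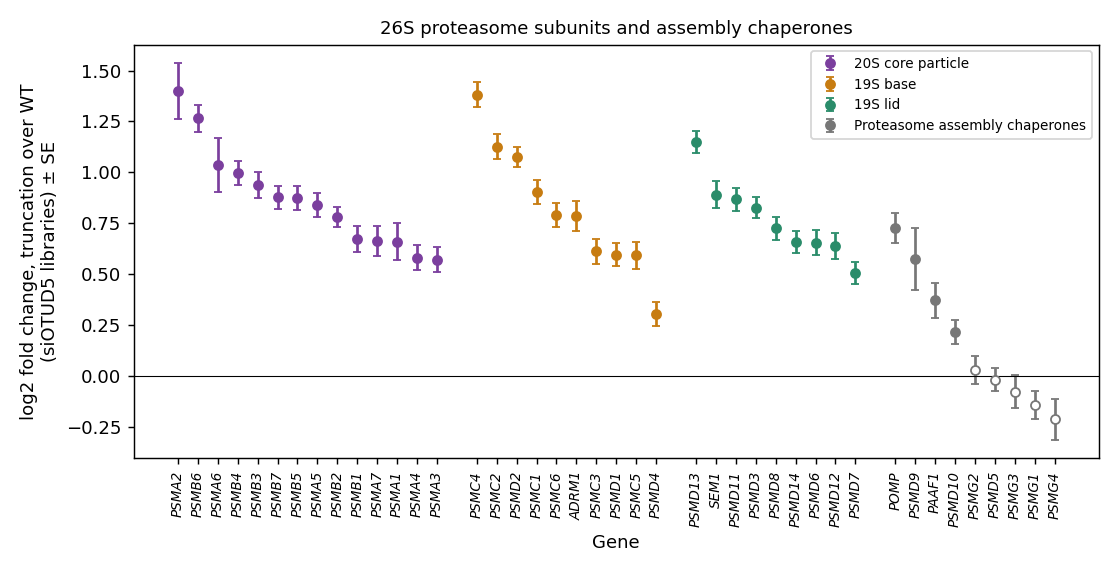
Log2 fold change, truncation over WT after siOTUD5, with its SE, for the subunits of the 20S core, 19S base and 19S lid and for the assembly chaperones. Filled points were called, open points were not. All subunits lie above 0, from 0.30 (PSMD4) to 1.40 (PSMA2), and 5 chaperones lie near 0.

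NRF1 binds antioxidant response elements, and the core letters TGACNNNGC were sought on both strands of 300-base RefSeq promoter windows (250 bases before to 50 after the start; GRCh38.p14). They were found in 6 of 28 proteasome promoters present in the table (21.4%), in 15.2% of promoters of tested genes and in 13.6% of all. The share was not particular to the proteasome. Among lists described below, it was 22.7% for spindle and 23.5% for kinetochore genes, which were lower in the truncation line. For interferon-stimulated genes it was 32% and for autophagy genes 9.52%, both lists that were higher. Of the called genes that were at least 2-fold higher, 24.4% held the letters, and of those at least 2-fold lower 11.8%. The 4 holders with the largest differences that have the match before the start are shown with 40 bases on either side where the upstream part allows, the motif in capitals. They lie at chr17:38752597-38752685 (+ strand) for PSMB3, at chr17:39980730-39980806 (+) for PSMD3, at chr20:62302719-62302807 (+) for ADRM1 and at chr17:67366694-67366782 (-) for PSMD12.
PSMB3: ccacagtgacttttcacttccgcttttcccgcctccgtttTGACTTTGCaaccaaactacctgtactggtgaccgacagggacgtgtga
PSMD3: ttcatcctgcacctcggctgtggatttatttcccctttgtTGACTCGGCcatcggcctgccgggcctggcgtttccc
ADRM1: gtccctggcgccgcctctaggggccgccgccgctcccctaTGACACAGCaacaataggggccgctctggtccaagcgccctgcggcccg
PSMD12: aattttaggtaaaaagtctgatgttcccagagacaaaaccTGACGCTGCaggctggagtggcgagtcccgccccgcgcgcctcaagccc
In the cells, PSMB3 was higher by 0.94 ± 0.07, ADRM1, the ubiquitin receptor Rpn13, by 0.79 ± 0.07 and PSMD12 by 0.64 ± 0.06. A match of letters is a description of the window and not a bound site.

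Genes that build and serve the proteasome moved in part. Of 9 assembly chaperones 4 were higher: POMP, which matures the core (0.72 ± 0.07), PSMD9 (0.57 ± 0.15), PAAF1 (0.37 ± 0.09) and PSMD10 (0.21 ± 0.06), while PSMG1 to PSMG4 and PSMD5 were not called. In the fit without WT libraries 2 and 3, 1 chaperone was called lower. PSME4, the activator PA200, was higher (0.91 ± 0.06) and PSME3 lower (-0.24 ± 0.05). Of 14 shuttle factors and proteasomal deubiquitinases 7 were higher and 3 lower. TXNL1, a thioredoxin bound to the 19S cap, was higher by 1.01 ± 0.07, and the arsenite-inducible protein ZFAND2A (0.72 ± 0.10), ZFAND5 (0.71 ± 0.05) and the shuttle UBQLN1 (0.59 ± 0.05) were also higher. The NRF1 protease DDI2 was lower (-0.35 ± 0.08), and NFE2L1 itself, at 502 ± 32.4 CPM against 525 ± 32.0 CPM, was not called (-0.07 ± 0.05). VCP was higher (0.72 ± 0.05), with 883, 959, 891 and 867 CPM in the truncation line and 551, 561, 514 and 559 CPM in WT. Of 18 genes of VCP and its cofactors 11 were higher and none lower, among them UFD1 (1.04 ± 0.06), PLAA (0.90 ± 0.06), NSFL1C (0.83 ± 0.05) and NPLOC4 (0.74 ± 0.05). NGLY1, which takes glycans off NRF1, was higher by 0.64 ± 0.07, and the ubiquitin ligase SYVN1 lower (-0.38 ± 0.06). UBB, which encodes ubiquitin, was higher as well (0.54 ± 0.06), whereas RPS27A, a fusion of ubiquitin with a ribosomal protein, was lower (-0.25 ± 0.06).

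Autophagy genes, which encode the other large route of protein degradation, were also higher. Of 21 tested members 15 were called higher and none lower, with a median of 0.42, and 15 higher and 1 lower without WT libraries 2 and 3. GABARAPL1, an ATG8 family protein of the autophagosome membrane, had 228, 229.9, 214 and 209 CPM in the truncation line and 74.0, 76.8, 66.4 and 70.8 CPM in WT. Its log2 fold change was 1.61 ± 0.06, and the groups did not overlap. The receptor SQSTM1 (p62) was higher by 1.10 ± 0.06, WIPI1 by 0.73 ± 0.06 and the receptor TAX1BP1 by 0.69 ± 0.06. Of 22 lysosomal genes 10 were higher, with cathepsin D (CTSD, 1.57 ± 0.09) and alpha-galactosidase (GLA, 1.16 ± 0.06) in front, and 4 lower, with GUSB (-0.52 ± 0.09) and CTSH (-0.42 ± 0.09) in front. The count of lower lysosomal genes was 2 when WT knockdown 1 or WT knockdown 4 was left out.

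Stress response genes split. NRF2 targets, genes of antioxidant defence, had 16 of 27 members higher and 4 lower, and 15 higher and 7 lower without WT libraries 2 and 3. OSGIN1 (1.85 ± 0.08), PIR (1.15 ± 0.06), the cystine carrier SLC7A11 (0.97 ± 0.08) and malic enzyme ME1 (0.87 ± 0.06) were higher, and the efflux pump ABCC2 lower (-1.45 ± 0.07). AKR1B10 was higher too (1.55 ± 0.11), but it has near-identical relatives and its reads may be split among them. Of 24 genes of the ATF4 response 12 were higher and 6 lower, the latter 3 in a fit to the 8 knockdown libraries alone. NUPR1 (1.57 ± 0.44) and GDF15 rose most, while DDIT4, an inhibitor of mTORC1, had 24.1, 23.7, 23.3 and 26.7 CPM against 74.6, 30.7, 61.5 and 65.7 CPM (-1.25 ± 0.17) and the serine hydroxymethyltransferase SHMT2 was lower by -0.97 ± 0.07. ATF4 itself was not called. Heat shock chaperones were mixed, 5 higher and 6 lower of 20, near the shares over all tested genes (21.9% and 23.6%). BAG3 (0.60 ± 0.05) and BAG2 (0.48 ± 0.07) were higher, FKBP4 (-0.62 ± 0.05) and the mitochondrial HSPD1 (-0.52 ± 0.05) lower. The list of endoplasmic reticulum chaperones and unfolded protein response genes had 3 of 20 higher, led by HERPUD1 (0.35 ± 0.07), and 6 lower, led by HYOU1 (-0.52 ± 0.05). These counts too were near the shares over all tested genes. Among p53 targets 9 of 27 were higher, with PHLDA3 (0.56 ± 0.08) and the CDK inhibitor CDKN1A (0.42 ± 0.05) in front, and 3 lower, with DDB2 (-0.44 ± 0.06) in front.

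**Figure D3:**
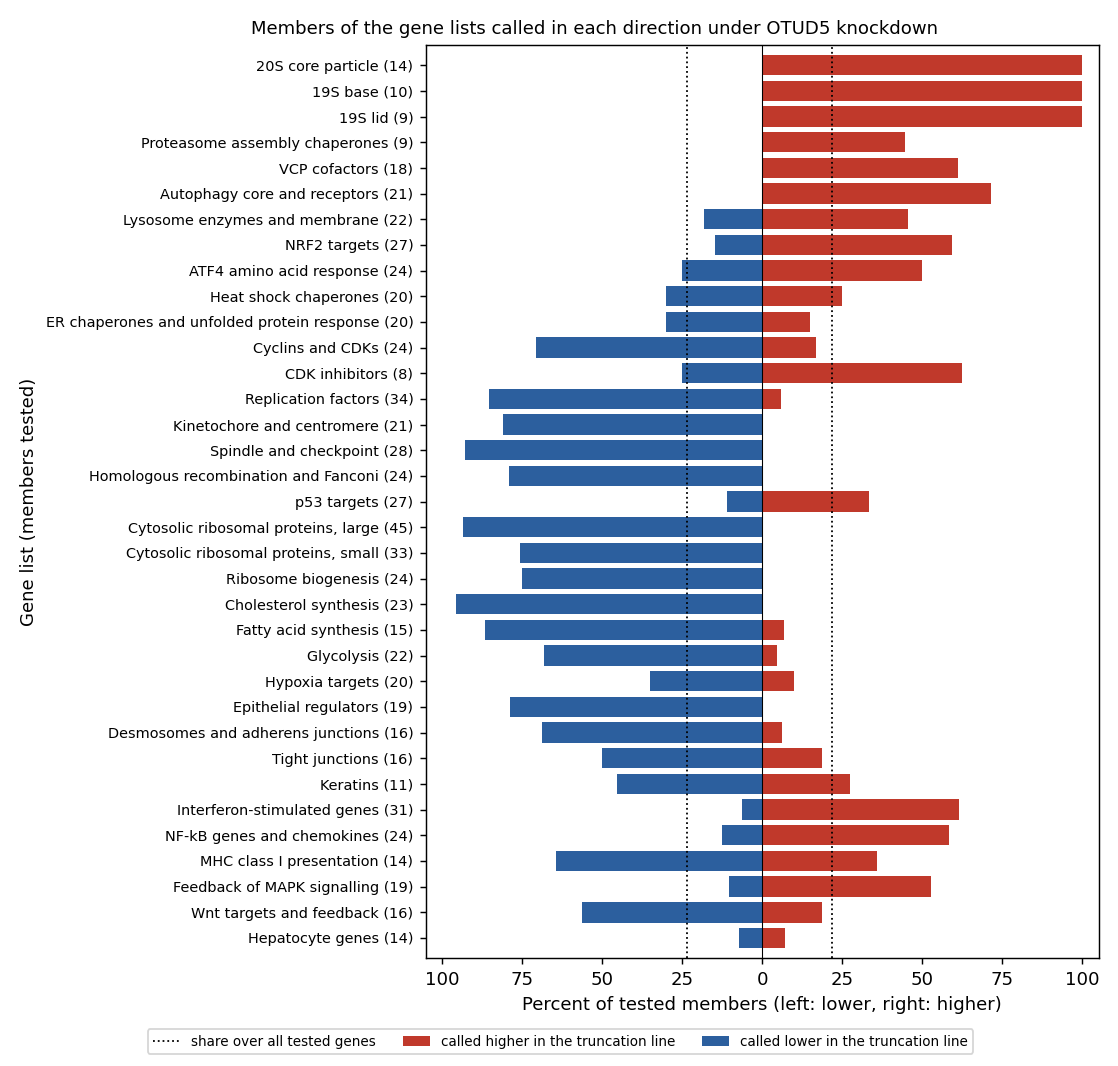
Percent of tested members of 35 gene lists called lower (left) or higher (right) in the truncation line after siOTUD5, with the number tested in brackets. Dotted lines mark the shares over all tested genes, 23.6% lower and 21.9% higher. Proteasome lists reach 100% higher, and spindle, ribosomal protein and cholesterol lists lie far to the left.

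Genes of cell division were lower in the truncation line. Of 28 spindle and checkpoint genes 26 were called lower and none higher (median -0.50), against 23.6% of all tested genes, and 26 without WT libraries 2 and 3. KIF20A, a kinesin of the late spindle, had 35.6, 37.3, 40.3 and 38.9 CPM in the truncation line and 89.5, 86.9, 79.5 and 87.4 CPM in WT, with no overlap. Its log2 fold change was -1.17 ± 0.06. The kinase AURKB (-1.06 ± 0.06), the kinesin KIF15 (-0.87 ± 0.08) and the spindle pole protein ASPM (-0.80 ± 0.09) followed. Kinetochore genes had 17 of 21 lower and none higher, with KNL1 (-0.83 ± 0.08), CENPE (-0.76 ± 0.07), HJURP (-0.70 ± 0.06) and NDC80 (-0.70 ± 0.07) in front. In bulk RNA, fewer dividing cells and less of these RNAs per cell cannot be told apart.

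Replication factors had 29 of 34 members lower and 2 higher (median -0.50). Only 1 was called higher without WT libraries 2 and 3, in a fit to the 8 knockdown libraries alone, or when any one of truncation knockdown 2, 3 and 4 and WT knockdown 1 and 3 was left out. RRM2, the regulated subunit of ribonucleotide reductase, had 229, 216, 222 and 203 CPM against 439.9, 523, 461 and 454 CPM, a difference of -1.11 ± 0.06. The polymerase subunit POLA1 (-0.81 ± 0.06), GINS1 of the replicative helicase (-0.70 ± 0.07) and the ligase LIG1 (-0.68 ± 0.08) were also lower, and RFC5 was higher (0.26 ± 0.05). Of 24 recombination and Fanconi genes 19 were lower and none higher, led by RAD54L (-0.91 ± 0.08), FANCE (-0.82 ± 0.07), EXO1 (-0.72 ± 0.07) and FANCI (-0.70 ± 0.06). Cyclins, CDKs and their factors had 17 of 24 lower, with cyclin A2 (CCNA2, -0.94 ± 0.05), CCNE2 (-0.85 ± 0.11), MYBL2 (-0.74 ± 0.06) and CDK1 (-0.74 ± 0.07) in front, and 4 higher, with CDK6 (0.64 ± 0.09) and E2F3 (0.44 ± 0.06) in front. Of 8 CDK inhibitors 5 were higher and 2 lower, the latter 1 without truncation knockdown 4. CDKN2B (p15) had 32.5, 31.4, 30.0 and 31.3 CPM against 15.4, 16.5, 15.8 and 15.2 CPM (0.99 ± 0.06), and CDKN2A (0.60 ± 0.08) and CDKN1B (0.42 ± 0.06) were higher as well. Of 15 genes of DNA methylation and demethylation 3 were higher and 4 lower (median 0.004), near the shares over all tested genes. DNMT1, which copies methylation marks (-0.83 ± 0.06), and its partner UHRF1 (-0.82 ± 0.06) were lower, whereas the demethylating enzyme TET2 was higher (0.45 ± 0.10).

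Many genes of mitosis carry the cell cycle homology region (core letters TTTGAA) near CCAAT boxes in their promoters. The letters TTTGAA, on either strand, were in 16 of 22 spindle promoters in the table (72.7%), in 9.63% of those of tested genes and in 15.4% of all. CCAAT was in 81.8%, 36.5% and 35.7%. These sets were chosen for display after their values were seen. The 4 called holders with the largest falls are shown, both motifs in capitals on either strand. KIF15 is at chr3:44761719-44761793 (+), ASPM at chr1:197146737-197146822 (-), KIF23 at chr15:69414254-69414339 (+) and CDC20 at chr1:43358876-43358961 (+).
KIF15: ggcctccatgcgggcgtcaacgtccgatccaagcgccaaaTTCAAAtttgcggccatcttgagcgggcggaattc
ASPM: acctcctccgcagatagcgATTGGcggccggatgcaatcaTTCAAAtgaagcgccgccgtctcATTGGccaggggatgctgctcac
KIF23: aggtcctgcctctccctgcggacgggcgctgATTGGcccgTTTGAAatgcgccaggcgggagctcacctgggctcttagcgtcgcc
CDC20: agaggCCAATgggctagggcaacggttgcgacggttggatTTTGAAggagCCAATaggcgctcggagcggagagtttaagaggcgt
KIF23, a kinesin of cytokinesis, was lower by -0.73 ± 0.05 and CDC20, an activator of the anaphase ubiquitin ligase, by -0.72 ± 0.05, given as log2 fold changes.

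Genes for ribosomes were lower as a group and by small amounts. Of 45 large-subunit proteins 42 were called lower and none higher (median -0.29), and of 33 small-subunit proteins 25 were lower and none higher (median -0.23). Without WT libraries 2 and 3 the lower counts were 43 and 28, and without WT knockdown 4 there was 1 large-subunit gene called higher. Their summed share of counts was 4.609% to 5.302% in the truncation libraries and 5.586% to 6.331% in WT. RPL3 (-0.43 ± 0.06), RPL12 (-0.46 ± 0.06) and RPL34 (-0.45 ± 0.07) were among the largest falls. RPL17 fell most within its list, but ribosomal protein genes have many processed copies and such values are uncertain. Ribosome biogenesis, the making of ribosomal RNA and particles in the nucleolus, had 18 of 24 genes lower and none higher, with BOP1 (-0.89 ± 0.07), NOP56 (-0.86 ± 0.06), RRS1 (-0.70 ± 0.08) and RRP9 (-0.64 ± 0.06) in front, and 1 was called higher without WT knockdown 2. Translation factors had 15 of 26 lower and none higher, among them EIF2S3 (-0.60 ± 0.06) and EIF1AX (-0.46 ± 0.06). Of 13 mitochondrially encoded genes none was called, but 2 were called higher without WT knockdown 2, and nuclear genes of the respiratory chain were mixed, 10 higher and 6 lower of 32, with 6 higher without WT libraries 2 and 3.

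Genes of lipid synthesis were lower, those of cholesterol and of fatty acids. Of 23 cholesterol genes 22 were called lower and none higher (median -0.62), and 21 lower without WT libraries 2 and 3. INSIG1, which holds back the sterol-sensing SREBP factors, had 38.7, 35.4, 41.6 and 31.7 CPM in the truncation line and 102, 77.1, 116 and 104 CPM in WT. Its difference was -1.44 ± 0.09, and the enzymes DHCR7 (-0.89 ± 0.07) and SQLE (-0.86 ± 0.06) were lower as well. Fatty acid genes had 13 of 15 lower and 1 higher, ME1. The stearoyl-CoA desaturase SCD had 367, 376, 519.8 and 341 CPM against 1639.9, 1019.7, 1718 and 1471 CPM, a log2 fold change of -1.87 ± 0.12 (edgeR adjusted p = 4.28e-12). Fatty acid synthase FASN had 556, 554, 643 and 642 CPM against 1738, 1271, 1666 and 1722 CPM, -1.42 ± 0.08 on the log2 scale. In both genes WT knockdown 2 was the lowest WT library and still stood above all truncation libraries. The factor SREBF1 (-1.26 ± 0.11) and the desaturase FADS1 (-1.20 ± 0.10) were lower too.

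Genes of carbon metabolism were lower in part. Of 22 glycolytic genes 15 were lower, led by HK2, the first enzyme of the path, with 29.9 ± 7.27 CPM against 94.0 ± 24.6 CPM (SD, n = 4 each; log2 -1.65 ± 0.15). ALDOC (-1.18 ± 0.26), PFKL (-0.99 ± 0.11) and LDHA (-0.78 ± 0.09) followed, and PFKFB3 was higher (0.20 ± 0.05). Hypoxia targets had 7 of 20 lower and 2 higher, and 12 lower without WT knockdown 2 and 4 higher without WT knockdown 1. The hypoxia factor EPAS1 (-1.12 ± 0.08) and PDK1 (-1.07 ± 0.23) were lower, and NDRG1 (0.98 ± 0.11) higher. The carbonic anhydrase CA9 had 3 counts in all over the 4 truncation libraries and 63 over the 4 WT libraries. Of serine, glycine and folate enzymes 10 of 18 were lower, among them GLDC (-1.05 ± 0.16) and MTHFD1L (-0.63 ± 0.05), and 3 were higher, among them CTH, which makes cysteine (1.41 ± 0.08). The iron exporter SLC40A1 was lower by -2.95 ± 0.52 and the transferrin receptor TFRC by -0.80 ± 0.06, and the ferroptosis suppressor AIFM2 was higher by 1.15 ± 0.06.

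Genes that regulate epithelia were lower, and lists of genes that mark epithelia were lower or split. Of 19 epithelial regulators 15 were called lower and none higher (median -0.92), and 17 lower without WT libraries 2 and 3. The transport GTPase RAB25 was lower by -1.51 ± 0.09 and GRHL2, a transcription factor of epithelial genes, by -1.39 ± 0.08. E-cadherin (CDH1) had 26.7, 29.3, 32.1 and 26.7 CPM against 64.1, 51.6, 67.1 and 56.9 CPM, a difference of -1.06 ± 0.08 with no overlap. Of 16 desmosome and adherens genes 11 were lower and 1 higher, with CDH3 (-1.28 ± 0.07) and PKP3 (-0.76 ± 0.08) in front. Tight junction genes split into 8 lower, led by CLDN7 (-1.01 ± 0.08), and 3 higher, led by CLDN2 (1.77 ± 0.18), of 16. Keratins were mixed, 3 higher and 5 lower of 11, with 1 at least 2-fold higher and 2 at least 2-fold lower. Their median was -0.317, and it moved to -0.178 without truncation knockdown 1 and to -0.425 without truncation knockdown 3. KRT7 (-2.07 ± 0.17) and KRT13 (-1.24 ± 0.28) were lower and KRT18 higher (0.53 ± 0.09). Mesenchymal genes split, with 3 of 15 higher, SPARC, ZEB1 (1.42 ± 0.11) and S100A4 (1.23 ± 0.07), and 4 lower, 1 of them at least 2-fold. The median of this list was -0.04, its shares were near those over all tested genes, and vimentin was not called. Of the intestinal list, GATA6 (0.71 ± 0.08) and the mucin MUC13 (1.01 ± 0.23) were higher and KLF4 lower (-1.21 ± 0.07), with 6 higher and 2 lower of 12, and 5 and 1 without WT libraries 2 and 3.

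Matrix, guidance and growth factor genes held some of the largest single differences without a common direction. COL6A3 (2.98 ± 0.18), the collagenase MMP13 (3.03 ± 0.36), EFNA5 (1.45 ± 0.13), and NRG4 (2.99 ± 0.19) were higher. The Wnt inhibitor DKK4 had 65 counts over the truncation libraries and 3 over those of WT. LAMA4 (-2.14 ± 0.32), ITGA1 (-1.49 ± 0.25), ITGA9 (-1.44 ± 0.21), EPHA1 (-1.12 ± 0.10), NRG2 (-1.31 ± 0.21) and JAG2 (-1.54 ± 0.07) were lower. Semaphorins with their receptors had 14 of 25 lower and 4 higher, and the Wnt targets 9 of 16 lower and 3 higher, the latter 1 in a fit to the 8 knockdown libraries alone. Feedback genes of MAPK signalling had 10 of 19 higher, with DUSP6 (0.84 ± 0.06), SPRED3 (0.73 ± 0.11) and DUSP5 (0.62 ± 0.08) in front, and 2 lower, 4 without WT libraries 2 and 3 and 1 without WT knockdown 4. In the insulin-like growth factor axis, IGFBP3 (1.24 ± 0.18) and IRS2 (0.72 ± 0.08) were higher, and IRS1 (-0.90 ± 0.07) lower. Of the TGF-beta and BMP genes 9 of 27 were higher, led by BMP4 (1.31 ± 0.06) and SMAD7 (0.56 ± 0.12), and 3 lower (median 0.03).

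Interferon-stimulated genes, which answer viral RNA and DNA, were higher. Of 31 tested members 19 were called higher and 2 lower (median 0.35), with 17 higher without WT libraries 2 and 3. IFI44 had 2.18, 3.05, 3.57 and 1.93 CPM in the truncation line and 0.204, 0.384, 0.136 and 0.104 CPM in WT, a log2 fold change of 3.67 ± 0.48. OAS1, which makes the activator of RNase L, was higher by 2.13 ± 0.57 (3.402 without WT knockdown 3), IFIT2, which binds viral RNA, by 1.59 ± 0.19 and MX1 by 1.48 ± 0.36. OAS3 (-0.57 ± 0.07) and DDX60 (-0.49 ± 0.10) were lower. The interferon response element core (GAAA, any 2 bases, GAAA), on either strand, was in 16 of 25 promoters of this list (64%), in 2.72% of promoters of tested genes and in 3.65% of all. The matches did not follow the direction gene by gene: OAS3 and DDX60, which were lower, held 2 each, and OAS1, which was higher, held none. The 4 called holders with the largest rises and a match before the start are shown with it in capitals. IFI44 is at chr1:78649731-78649788 (+), IFIT3 at chr10:89327835-89327924 (+), IFI6 at chr1:27672236-27672325 (-) and IFIH1 at chr2:162318685-162318745 (-).
IFI44: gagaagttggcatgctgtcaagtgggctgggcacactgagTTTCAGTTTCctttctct
IFIT3: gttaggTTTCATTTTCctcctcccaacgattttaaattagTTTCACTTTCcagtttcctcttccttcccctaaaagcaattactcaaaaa
IFI6: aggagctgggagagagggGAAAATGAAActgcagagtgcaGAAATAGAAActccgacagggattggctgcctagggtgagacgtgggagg
IFIH1: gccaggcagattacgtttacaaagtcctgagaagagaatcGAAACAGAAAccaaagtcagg
IFIT3 was higher by 1.36 ± 0.22, the antiviral protein IFI6 by 1.15 ± 0.10 and the RNA sensor IFIH1 (MDA5) by 1.08 ± 0.10 on the log2 scale.

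NF-kB genes and chemokines had 14 of 24 higher, led by the cytokine IL1A (1.39 ± 0.30) and the chemokine CXCL2 (1.17 ± 0.26), and 3 lower, led by IL32 (-1.74 ± 0.31) and the adhesion receptor ICAM1 (-1.32 ± 0.17). Antigen presentation by MHC class I had 9 of 14 genes lower, with the peptide transporter TAP2 (-0.57 ± 0.08) and HLA-F (-0.55 ± 0.11) in front, and 5 higher, with the peptidase ERAP2 (0.71 ± 0.15) in front. The higher count was 2 without truncation knockdown 2, and the same number without WT libraries 2 and 3. HLA genes are polymorphic and alike, so their counts are uncertain. Apoptosis genes of the BCL2 family split, with BCL2L1 (BCL-XL) higher by 0.58 ± 0.07 and BCL2 lower by -0.96 ± 0.13.

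Among chromatin regulators few lists moved one way. Over all tested genes, 21.9% were called higher and 23.6% lower. Of 24 SWI/SNF genes 3 were higher, 6 lower and 15 not called, and 1 was higher in a fit to the 8 knockdown libraries alone. SMARCA2, an ATPase of the SWI/SNF complex, was higher (1.17 ± 0.06), while SMARCC1 (-0.42 ± 0.06) and SMARCA4 (-0.33 ± 0.05) were lower. Of 29 Polycomb genes 6 were higher, led by PHF1 (0.97 ± 0.06), and 10 lower, led by BCOR (-0.58 ± 0.06) and PHC1 (-0.57 ± 0.09). HOX genes split into 6 higher and 10 lower of 29, with HOXC10 (-0.63 ± 0.16) among the lower. The lower count of HOX genes was 6 when truncation knockdown 4 or WT knockdown 1 was left out. In both the Polycomb and the HOX list the higher count was near the share over all tested genes. By chromosome, the median log2 fold change lay between -0.053 (X, 519 genes) and 0.032 (18, 229 genes) over the autosomes and X, all small beside the median absolute change of called genes.

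The truncation comparison with scrambled siRNA uses 8 other libraries and shares none with the one above. There 7529 genes were called (44% of those tested). Of genes called higher under knockdown, 2625 were also called higher with scrambled siRNA, 70.1% of the first set and 71.1% of the second. For genes called lower the overlap was 2645, 65.5% and 68.9%. NLRP4 (5.36 with scrambled siRNA, 4.89 with knockdown), B3GALT5 (-5.42 and -5.19) and MAL2 (-3.13 and -3.37) had these log2 fold changes, and none of the 3 was called in the interaction. Proteasome medians were 0.79 (core), 0.78 (base) and 0.79 (lid) with scrambled siRNA, next to 0.86, 0.79 and 0.72 with knockdown.

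Whether the difference between the lines itself changed with knockdown was tested by the interaction, the log2 fold change under knockdown minus that with scrambled siRNA. It was called for 974 genes (5.69%), 350 higher (2.05%) and 624 lower (3.65%). The split depended on scaling: with upper-quartile scaling 502 were higher and 397 lower. Without WT knockdown 2 more genes were called, 533 higher and 1128 lower. Of the 974, 743 were called under knockdown and 661 with scrambled siRNA, and 343 had the same call in both, 211 of them with the larger difference under knockdown. Genes with opposite calls in these comparisons numbered 45 higher and 42 lower under knockdown, and all of them were called in the interaction. A further 1077 higher and 1349 lower genes were called under knockdown and not with scrambled siRNA, and of these the interaction was called for 116 and 197. For the rest a change of the difference with knockdown was not shown.

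A part of the cell division genes differed more between the lines under knockdown. The interaction was lower for 16 of 28 spindle genes, 9 of 34 replication factors, 8 of 24 cyclins and CDKs and 7 of 21 kinetochore genes, against 3.65% of all genes, and higher for none. With upper-quartile scaling these counts were 11, 6, 5 and 4, with none higher. KIF20A (-1.17 ± 0.06 with knockdown, -0.62 with scrambled siRNA) had an interaction of -0.55 ± 0.08 (edgeR adjusted p = 0.000114). AURKB (-0.43 ± 0.09) and RRM2 (-0.40 ± 0.08) were similar. Cholesterol synthesis had 9 of 23 and fatty acid synthesis 6 of 15 genes lower in the interaction, 4 and 3 with upper-quartile scaling. SCD was -1.87 with knockdown and -1.02 without, an interaction of -0.85 ± 0.16, and FASN had one of -0.50 ± 0.11. ATF4 response genes were the list with the most higher interactions, 6 of 24, and 10 with upper-quartile scaling. CHAC1, which degrades glutathione, was at 9.66 ± 0.709 CPM in WT and 9.54 ± 0.524 CPM in the truncation line with scrambled siRNA. With knockdown it was at 19.03 ± 3.89 and 29.1 ± 4.14 CPM, an interaction of 0.63 ± 0.17, whose call was lost under 6 of the alternative settings.

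Some genes differed less between the lines under knockdown. SPARC was at 228 ± 2.41 CPM in the truncation line with scrambled siRNA and 70.7 ± 6.07 CPM with knockdown, while WT was at 3.21 ± 0.717 and 2.84 ± 0.665 CPM, an interaction of -1.52 ± 0.17 (edgeR adjusted p = 1.12e-05). IGFBP3 had 16.6 ± 1.22 and 3.49 ± 0.385 CPM in the truncation line and 2.93 ± 0.392 and 1.47 ± 0.533 CPM in WT (-1.26 ± 0.23). AKR1B10 had the lowest interaction (-2.19 ± 0.21); it was near absent in WT cells with scrambled siRNA, at 0.533 ± 0.0734 CPM, and at 4.38 ± 0.661 CPM with knockdown. MIR1915HG (-1.20 ± 0.13), DNAI3 (-1.17 ± 0.22) and DDIT4L (-1.11 ± 0.28) also had a smaller difference under knockdown and were among the 8 lowest interactions. The other two were of another kind. PRF1, the pore protein perforin, had a log2 fold change of -1.35 ± 0.18 with knockdown and -0.14 ± 0.13 without (-1.21 ± 0.22), a larger difference under knockdown. SEMA3C was -0.18 ± 0.07 with knockdown, a call lost in 10 settings, and 1.05 ± 0.07 without (-1.23 ± 0.10).

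Other genes had little difference between the lines, or the opposite one, with scrambled siRNA. The glutamate receptor subunit GRIN2C had 3.53 ± 0.580 CPM in WT and 3.04 ± 0.323 CPM in the truncation line with scrambled siRNA, and 8.96 ± 1.96 and 22.8 ± 6.46 CPM with knockdown, the highest interaction (1.56 ± 0.25, edgeR adjusted p = 0.000574). MSLNL, YJEFN3, ANKRD10-IT1 and a pair of genes without a symbol were also among the 8 highest. Of these, ANKRD10-IT1 was not called under knockdown (0.31 ± 0.14), and the call of MSLNL there (0.40 ± 0.16) was lost in 12 settings. The next genes, given with their interactions in brackets, had an adjusted p above 0.5 in scrambled cells. The acid-sensing channel ASIC4 (1.36 ± 0.23), the repressor BCL6 (0.72 ± 0.14), the anchoring collagen COL7A1 (0.72 ± 0.16) and TMEM158 (0.63 ± 0.10) were higher in the truncation line under knockdown. PEG10 (-0.89 ± 0.17), the cytidine deaminase APOBEC3B (-0.94 ± 0.13), the desmosomal cadherin DSC2 (-0.70 ± 0.09) and LIG3 (-0.53 ± 0.09) were lower there. APOBEC3B was at 10.8 ± 0.605 CPM in WT and 5.87 ± 0.658 CPM in the truncation line under knockdown, and its log2 difference with scrambled siRNA was 0.07 ± 0.09. The factor SOX4 changed order: 148 ± 3.06 CPM in WT and 179 ± 10.1 CPM in the truncation line with scrambled siRNA, 194 ± 28.7 and 122 ± 12.5 CPM with knockdown, an interaction of -0.94 ± 0.11. PDE4B (-0.87 ± 0.08) and the Wnt inhibitor NKD1 (-0.81 ± 0.14) did likewise, and YJEFN3 (1.21 ± 0.19), ATP2A1 (1.13 ± 0.18) and PSMD4 (0.54 ± 0.08, edgeR adjusted p = 0.000347) in the other direction.

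**Figure D4:**
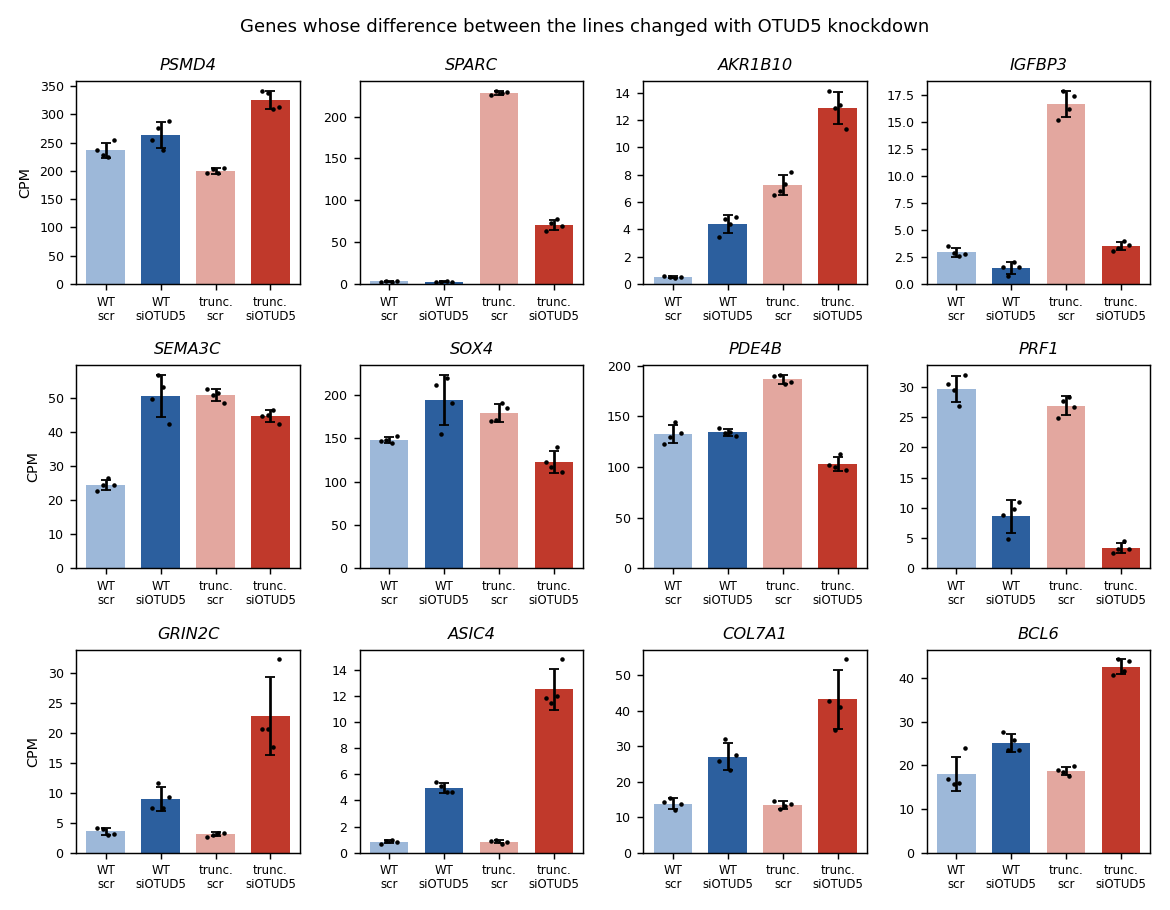
CPM of 12 genes called in the interaction in the 4 groups (bars, mean; error bars, SD; points, the 4 libraries of each group). SPARC is lower with siOTUD5 than with scrambled siRNA in the truncation line, GRIN2C and ASIC4 are highest in the truncation line with siOTUD5, and PSMD4 and SOX4 change order between the lines.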

How the data were processed

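The authors deposited a raw table of counts per gene for all 16 libraries, and those counts are the unit used; the deposited normalised tables were not used. Per the submitters' processing notes, STAR 2.7.3a, DESeq2, edgeR, limma and hg38 were used, with no role or order; for the counter, annotation release and strand the sources used here give nothing. Libraries were grouped by library name and treatment label. The counts as deposited were fitted with edgeR 4.0.16 (R 4.3.3): genes kept by filterByExpr over the 4 groups, TMM scaling, 1 coefficient per group over all 16 libraries (12 residual degrees of freedom, common biological coefficient of variation 7.25%), a quasi-likelihood test and Benjamini-Hochberg adjustment over all tested genes, called below 0.05. All 16 libraries share 1 estimate of the spread. SE is the absolute log2 fold change over the square root of F. CPM is the count over the TMM-scaled total of tested genes. Alternatives were DESeq2 1.42.0, limma-voom (limma 3.58.1), other scalings and filters, the 8 libraries alone, a replicate block and each library left out. Scripts were tested on simulated counts. Coordinates are from GENCODE on hg38, promoters from RefSeq (GRCh38.p14), 1 per symbol.

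The genes and the 73 gene lists were chosen with earlier results of these data known. Genes named are the 10 largest rises and falls (called, groups apart, log2 CPM averaging 1 or more over the 8 libraries), the 8 largest rises and falls in CPM, up to 4 per list by absolute change with up to 2 opposite, the 8 highest and lowest interactions, up to 6 per direction with opposite calls or with an adjusted p over 0.5 in scrambled cells, OTUD5 and PSMD4; others were named after their values were seen. Some genes that these rules select are not reported here.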

Additional observations from a re-analysis of the deposited data

Results flagged for a closer look

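In groups of 4 libraries, some genes named above had 1 library far from the other 3 (a gap to its nearest neighbour of more of the range of the group than the Dixon critical value at 95%). Chance alone flags about 1 in 20 groups. The 234 named genes that the rules above select were examined in both groups, so many of the flags below can come by chance. In the truncation knockdown group, replicate 4 was highest for ASIC4 (14.8 CPM), ATP2A1 (19.1 CPM), ITGA1 (0.799 CPM) and NKD1 (17.4 CPM), and lowest for HSPD1 (1151 CPM) and PSME3 (167 CPM). Replicate 2 was highest for BMP4 (322 CPM), and it had no count of CA9 (0 CPM). Replicate 3 was highest for FOXA2 (0.066 CPM, the only replicate with a count), HS3ST1 (14.3 CPM), NOP56 (150 CPM) and SHMT2 (69.9 CPM), and lowest for NPLOC4 (748 CPM) and OSGIN1 (212 CPM). Replicate 1 was lowest for CTSH (8.84 CPM) and SUSD2 (36.7 CPM).

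In the WT knockdown group, replicate 3 stood apart by its 32264 genes with a count and by NRG4 (0.781 CPM, highest). Replicate 2 stood apart for 9 of the other 10 genes: it was lowest for FASN (1271 CPM), IL32 (0.802 CPM), KRT20 (0.523 CPM), SREBF1 (146 CPM) and TMEM200A (11 CPM), and highest for ADGRF1 (63.5 CPM), POLA1 (53.5 CPM), PSME3 (220 CPM) and UBQLN1 (285 CPM). Replicate 1 was highest for DUSP6 (73.6 CPM).

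For the genes that follow, the difference between the lines was itself called different with and without OTUD5 knockdown, by the edgeR interaction. Their log2 interactions were negative for AKR1B10 (-2.19), SPARC (-1.52), IGFBP3 (-1.26), SEMA3C (-1.23), PRF1 (-1.21), MIR1915HG (-1.20), DNAI3 (-1.17), DDIT4L (-1.11), APOBEC3B (-0.94), SOX4 (-0.94), PEG10 (-0.89), PDE4B (-0.87), SCD (-0.85), NKD1 (-0.81), DSC2 (-0.70), KIF20A (-0.55), LIG3 (-0.53), FASN (-0.50), AURKB (-0.43) and RRM2 (-0.40). They were positive for GRIN2C (1.56), ASIC4 (1.36), YJEFN3 (1.21), ATP2A1 (1.13), BCL6 (0.72), COL7A1 (0.72), CHAC1 (0.63), TMEM158 (0.63) and PSMD4 (0.54).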

How the results depend on the processing

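Of the genes named, 234 that the rules above select were examined in the alternatives. Of these, 3 lost the call of the truncation difference in any setting (KRT8, MSLNL and SEMA3C). Of 29 interactions examined, that of CHAC1 was lost in 6 settings. In all other values of called genes among these that could be computed, the direction and call were kept. Genes named outside those rules, such as PSMB3, KIF23 and IFIT3, were not examined in this way. CA9, DKK4 and FOXA2 did not pass the filter in a fit to the 8 knockdown libraries alone and have no value there. FOXA2 was at -5.782 without truncation knockdown 3 and -2.862 without WT knockdown 4, and DKK4 at 5.107 without WT knockdown 3. ANKRD10-IT1, not called in the report (0.310 on the log2 scale), was called with the replicate block (0.319), without WT knockdown replicate 2 (0.408) and without WT knockdown 2 and 3 (0.574). OTUD5, not called in any setting, was at -0.004 to 0.105 with each library left out, the lower value without WT knockdown 2. Called genes numbered 7061 to 8080 with each library left out, and those at least 2-fold lower 659 with no filter. The interaction moved more. With upper-quartile scaling 397 genes were lower in it. DESeq2 called 1470, of which 1042 lower. Without WT knockdown 2 and 3 together, an alternative chosen after seeing the data, 1642 were called, 1284 lower. Leaving out single libraries gave 653 to 1661 called, 199 to 533 higher and 426 to 1128 lower; the low and high totals came without WT scramble 2 and WT knockdown 2. The cause was not tested. The median of chromosome 18 was 0.002 to 0.031 with each library left out and 0.000 without WT knockdown 2 and 3.

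Deviations of same-numbered truncation and WT libraries correlated at -0.152, 0.114, 0.335 and 0.0113, and those of different-numbered ones at -0.28 to 0.169. So few values do not settle whether replicate numbers pair the libraries. With the replicate block 7926 genes were called, 3848 higher and 4078 lower, and 1150 in the interaction. At 28777244 to 29396205 counts per library, genes with few counts in a group, such as CA9 and DKK4, have imprecise differences.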
